A study of Mus musculus with 4 samples.

Results

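The proteasome subunits and the ubiquitin-conjugating enzymes of mouse oocytes were taken by symbol from the deposited gene list: Psm followed by a letter from a to g and a number, or Ube2 followed by a letter and any further letters or digits. The rule found 78 of the 16861 genes listed in every library, 44 of them Psm genes and 34 Ube2 genes, and the groups were described apart. RNA had been measured in germinal vesicle oocytes, which are fully grown and arrested before the meiotic divisions, with chromatin either spread through the nucleus (non-surrounded nucleolus, NSN) or ringed around the nucleolus (surrounded nucleolus, SN). The oocytes came from 3-week-old female C57BL/6J mice, had their cumulus cells removed by pipetting, and were stained with Hoechst in a medium with milrinone, which keeps the arrest, and sorted under ultraviolet light into NSN and SN. Each library held 15 oocytes and was made by Smart-seq2, in which poly(A) RNA is copied and amplified by PCR, and 2 NSN and 2 SN libraries were analysed here, although the labels speak of 3 samples a group. The labels do not say whether the replicates came from separate mice, so every p-value measures only the spread between these libraries.

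The 26S proteasome degrades proteins that carry ubiquitin: its 20S core is a stack of alpha and beta rings with the proteolytic sites inside, and its 19S cap binds, unfolds and deubiquitinates the substrate. Ubiquitin is activated by an E1 enzyme, passed to an E2 (the Ube2 family) and placed on the substrate with the help of an E3 ligase. In oocytes, the E3 ligase anaphase-promoting complex (APC/C) and its E2 enzymes are known for holding the germinal vesicle arrest and for the destruction of cyclin B and securin during the meiotic divisions.

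The total recovered from the values was 17408945 read pairs for NSN replicate 1, 17911559 for NSN replicate 2, 17069772 for SN replicate 1 and 17998361 for SN replicate 2. Each is the smallest total that gave whole read pairs for the mitochondrial genes, whose lengths are known, and a multiple of it would fit as well, so totals and read pairs printed here are the least that the values allow. Values are FPKM, in which read pairs are divided by the gene length and the library total, so that levels of different genes are compared per length. A gene of 1 kb with 3 read pairs would have 0.167 to 0.176 FPKM at these depths. This limit covers counting error only, since read pairs amplified by PCR are not independent molecules. Psm genes accounted for 0.682% and 0.679% of the NSN totals and for 0.691% and 0.745% of the SN totals. Ube2 genes accounted for 1.48% and 1.46% of the NSN totals and for 1.4% and 1.37% of the SN totals.

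Proteasome genes were expressed at high and very uneven levels. The median Psm gene had a mean level of 52.4 FPKM over the 4 libraries, against 1.65 FPKM for the median listed gene. Of the 44 Psm genes, 13 had a mean of at least 100 FPKM and 38 of at least 10 FPKM, while 4 were under 5 FPKM. The median Ube2 gene stood at 10.05 FPKM, with 4 of 34 genes at 100 FPKM or more, 17 at 10 FPKM or more and 12 under 5 FPKM. Genes with a mean of at least 0.5 FPKM were tested with limma on log2(FPKM + 0.5), a scale that understates the change of genes with low levels, and where a difference is named the largest, this holds among tested genes on this scale with the deposited values. This kept 42 Psm genes, all but Psma8 and Psmb10, and all 34 Ube2 genes. Counts, medians and sums cover all members, and not every member is named or plotted.

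Among the Psm genes, limma called Psme4 higher and Psmb5 lower in SN oocytes, at a Benjamini-Hochberg adjusted p under 0.05 over all 11672 genes tested and a fold change of at least 1.2. Over all genes, 5.95% were called higher, 1.98% lower and 7.93% in either direction, so 1 of 42 Psm genes in each direction was no larger share than the background for higher calls and near it for lower calls. Both SN libraries lay above both NSN libraries for 19 Psm genes and below them for 6, and the groups overlapped for 17. For all genes those shares were 44.8% above and 17.8% below, so the Psm genes did not stand apart from the rest. At an unadjusted p under 0.05, 11 Psm genes were higher (Psma6, Psmb1, Psmb4, Psmb7, Psmc3, Psmd1, Psmd4, Psmd14, Psme2, Psme3 and Psme4) and 3 lower (Psmb5, Psmd2 and Psmd13). Over all genes 23.8% were higher and 7.86% lower at this threshold, so 11 and 3 of 42 were near the background. The counts given for the classes below are read against these shares, and their calls against 5.95% higher and 1.98% lower.

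Among the Ube2 genes, Ube2s was called higher and Ube2d3 and Ube2g2 lower in SN oocytes. Set against 5.95% of all genes, 1 higher call among 34 was a smaller share, and 2 lower calls against 1.98% were a larger share that rests on a pair of genes. Both SN libraries lay above both NSN libraries for 20 Ube2 genes and below them for 7, and 7 overlapped. For all genes the shares were 44.8% above and 17.8% below. The count below was near that share, and the larger count above was not tested. At an unadjusted p under 0.05, 8 Ube2 genes were higher (Ube2b, Ube2cbp, Ube2d1, Ube2d2a, Ube2n, Ube2s, Ube2w and Ube2z) and 4 lower (Ube2a, Ube2c, Ube2d3 and Ube2g2), where 23.8% and 7.86% of all genes were. Names at this looser threshold were read off after the values were seen. FPKM measure a share of the library of 15 pooled oocytes, so less RNA of a gene per oocyte and fewer oocytes holding it cannot be told apart.

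How the libraries were scaled moved the direction of small differences. On the deposited FPKM the median log2 fold change (SN minus NSN) over all tested genes was 0.14, and 75.1% of the calls were higher in SN (695 higher, 231 lower). With each library divided by the median ratio of its genes to their mean, that median was 0.005 and 30.4% of the calls were higher (78 higher, 179 lower), and with quantile normalization 32.2% were. The median over the Psm genes was 0.07 as deposited, below the median of all genes, and it turned to -0.08 after median scaling. The median over the Ube2 genes was 0.19, and 0.05 after median scaling. Single log2 fold changes ran from -0.71 to 0.76 for Psm and from -0.78 to 0.85 for Ube2.

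The spread between replicates set the scale for these differences. For the Psm genes, the median absolute log2 difference between replicates was 0.079 in NSN and 0.131 in SN, and the median absolute fold change was 0.149. For the Ube2 genes the replicates differed by 0.089 and 0.093, against a median absolute fold change of 0.266. Over all genes the corresponding values were 0.148, 0.141 and 0.235. The Ube2 genes thus combined closer replicates than the median gene with a difference between configurations of about the size seen for all genes, whereas the Psm genes differed by less. No test was made of this contrast between the families. Levels were not matched either: the median Psm and Ube2 genes stood at 52.4 and 10.05 FPKM, against 1.65 FPKM for the median listed gene.

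**Figure D1:**
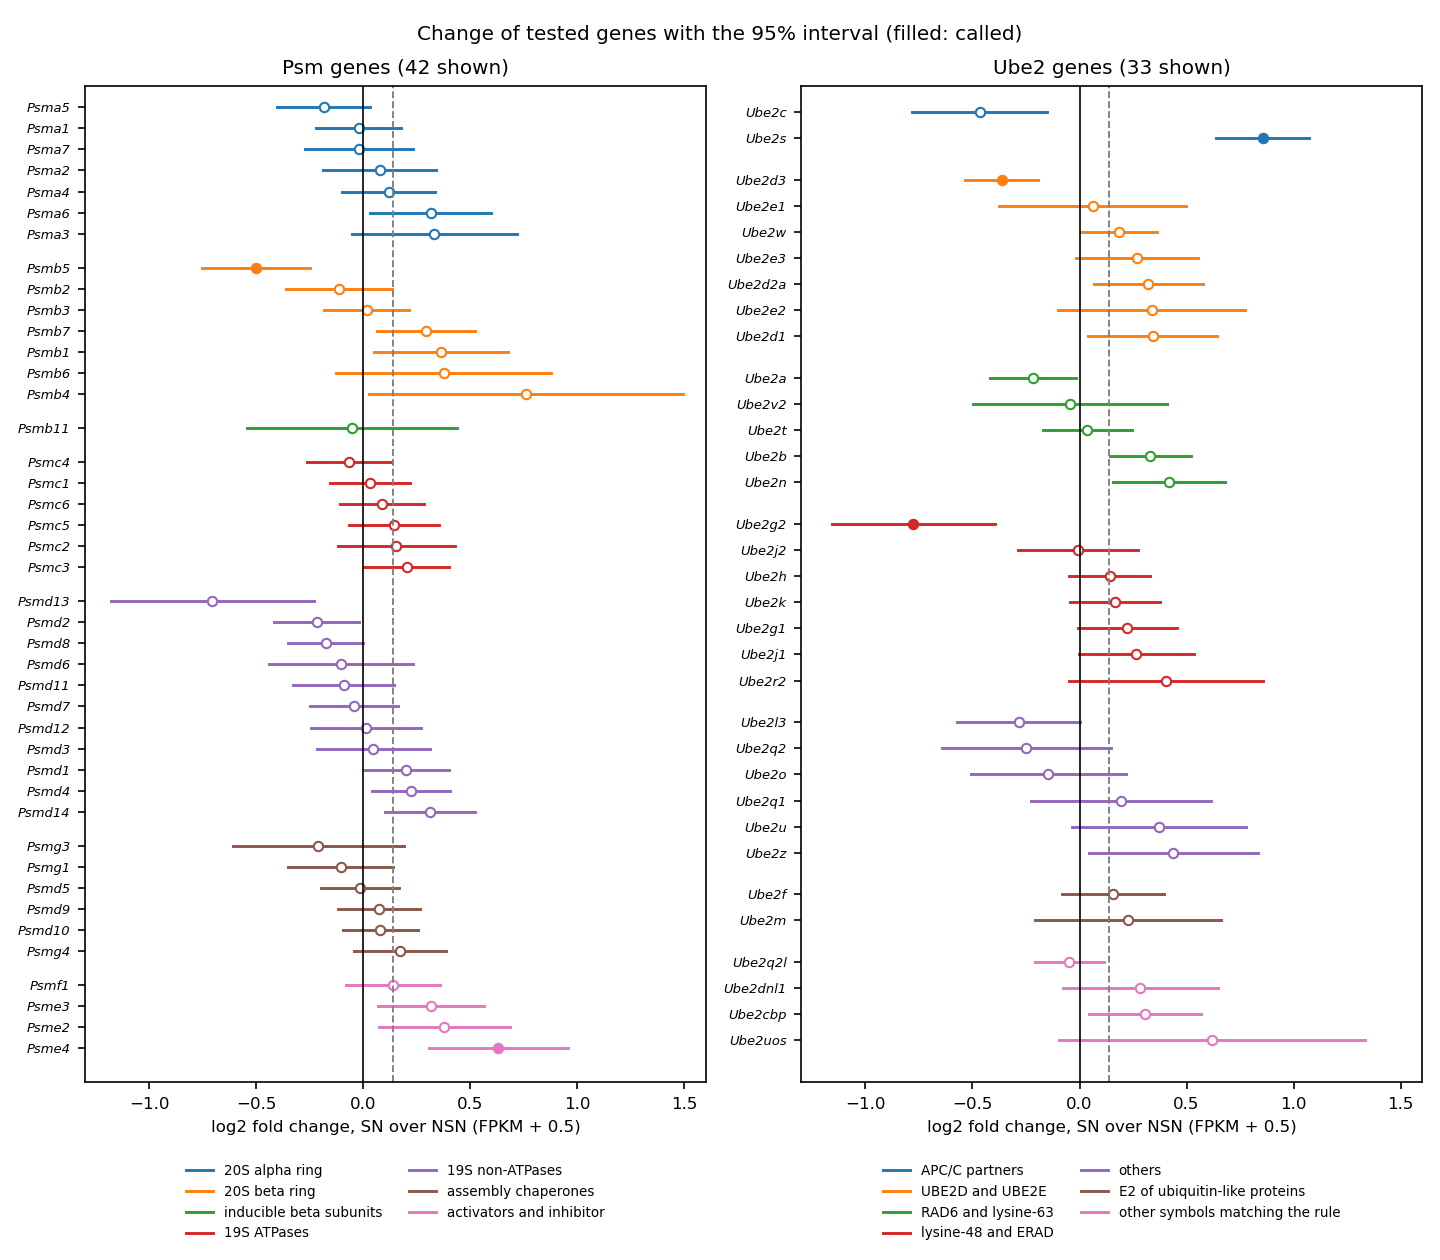
Log2 fold change of FPKM (SN minus NSN) of the tested Psm and Ube2 genes shown, by class, with the 95% interval from limma on 2 libraries a group; filled points are called, the solid line is 0 and the dashed line is the median of all tested genes, 0.14. The called genes are Psme4 and Ube2s on the higher side and Psmb5, Ube2d3 and Ube2g2 on the lower side.

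The 7 constitutive alpha subunits form the outer rings of the 20S core and gate its entry. None of the 7 was called, and 1 was higher at an unadjusted p under 0.05 in limma. Their summed level, with Psma8, was 1003 and 998 FPKM in NSN and 934 and 1086 FPKM in SN. The SN libraries lay on either side of the NSN libraries (exact permutation p = 1.0, two-sided, where 2 libraries against 2 cannot give less than 0.33). Psma7 was the most abundant, with 397 and 381 FPKM in NSN and 347 and 425 FPKM in SN. The groups overlapped, and the log2 fold change was -0.02 (limma adjusted p = 0.922). Psma3 had the largest difference of the class, with 4.70 and 6.43 FPKM in NSN and 6.96 and 7.16 FPKM in SN. Both SN values were above both NSN values, but NSN replicate 2 was close to them (log2 fold change 0.33, limma adjusted p = 0.207). With each library left out in turn, the log2 fold change of Psma3 ran from 0.12 to 0.54. Psma8, which replaces Psma7 in the proteasome of male germ cells, had 4 and 0 read pairs in NSN and 3 and 2 in SN. It was near the floor of 3 read pairs in every library, and no fold was computed.

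The beta subunits form the inner rings, and Psmb5, Psmb6 and Psmb7 carry the chymotrypsin-like, caspase-like and trypsin-like sites. Of the 7 constitutive beta genes, 1 was called lower and none higher, against 1.98% and 5.95% of all genes. At an unadjusted p under 0.05 in limma, 3 were higher and 1 lower (23.8% and 7.86% of all genes). Psmb5 had 12.3 FPKM in NSN replicate 1, 12.8 FPKM in NSN replicate 2, 9.06 FPKM in SN replicate 1 and 8.41 FPKM in SN replicate 2. The replicates were close in each group and both SN libraries were below both NSN libraries. Psmb5 fell between the group means, 12.6 ± 0.326 FPKM in NSN and 8.73 ± 0.462 FPKM in SN (SD, n = 2). The log2 fold change was -0.50 with a 95% interval from -0.75 to -0.25 (limma adjusted p = 0.045, and from 0.018 to 0.0921 over 10 alternatives). The call was lost with the replicate block, when no variance trend was fitted, and when genes of any level were tested. It rests on 193 and 206 read pairs in NSN and 139 and 136 in SN. Psmb5 lies on the minus strand of chromosome 14 of GRCm39 from 54850776 to 54855481 (ENSMUSG00000022193.9). A near-identical copy with 99.11% of its bases alike over 52.85% of the transcript lies on chromosome 7 from 3230809 to 3231707. That transcript is from a later annotation, and the gene length recovered from the values was 899 bases. The copy may thus cover more of the counted bases than that share, and the part of reads shared with it was not tested.

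The other catalytic subunits were not called. Psmb7 was among the most abundant, with 324 and 322 FPKM in NSN and 364 and 432 FPKM in SN. The SN values were higher, with the SN replicates farther apart than the NSN replicates (log2 fold change 0.29, limma adjusted p = 0.096). Nek6, on the opposite strand, covers 46.76% of the exon bases of Psmb7 and was itself at 0.0820 and 0.112 FPKM in NSN and 0.0558 and 0.0370 FPKM in SN. Psmb6 had 89.7 and 133 FPKM in NSN and 165 and 121 FPKM in SN. Here SN replicate 2 lay between the NSN replicates, so the groups overlapped (log2 fold change 0.37, limma adjusted p = 0.263). It passed without NSN replicate 2 (limma adjusted p = 0.0403, and up to 0.806 without another library). As counted, Psmb5 was thus far less abundant per length than its catalytic partners in all 4 libraries. The part of its near-identical copy in that difference was not tested. The ratio of Psmb5 to Psmb2 was 0.0273 and 0.0295 in NSN and 0.0245 and 0.0187 in SN.

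Among the beta genes without a catalytic site, Psmb2 was the most abundant, with 451 and 434 FPKM in NSN and 370.3 and 450.4 FPKM in SN. SN replicate 2 lay between the NSN replicates and SN replicate 1 below them (log2 fold change -0.12, limma adjusted p = 0.474). Psmb4 differed between the replicates of each group, with 7.38 and 12.03 FPKM in NSN and 21.8 and 12.2 FPKM in SN. SN replicate 1 stood far above the rest, and SN replicate 2 was level with NSN replicate 2. Its log2 fold change of 0.76 had a standard error of 0.31 and did not pass (limma adjusted p = 0.148). With each library left out in turn it ran from 0.35 to 1.17, and it passed without NSN replicate 2 (limma adjusted p = 0.0386, and up to 0.444 without another library). The summed level of the beta ring was 937 and 965 FPKM in NSN and 985 and 1080.3 FPKM in SN, and the ratio of the alpha to the beta ring was 1.07 and 1.03 in NSN and 0.948 and 1.01 in SN. The subunits of a ring stand in equal numbers in the complex, yet their levels per length differed widely, from 10.5 to 426 FPKM across the constitutive beta genes.

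The inducible subunits replace the catalytic ones in immune cells and in the thymus. Psmb8 and Psmb9 were not analysed here. Psmb10, the counterpart of Psmb7, had 9 and 5 read pairs in NSN and 2 and 2 in SN, which is 0.394 and 0.213 FPKM against 0.0894 and 0.0848 FPKM. Its level was under the filter and it was not tested. Psmb11, the subunit of the thymus proteasome, had 0.649 and 0.408 FPKM in NSN and 0.510 and 0.458 FPKM in SN. The groups overlapped (log2 fold change -0.05, limma adjusted p = 0.880). The constitutive counterparts were the only catalytic subunits above 1 FPKM among those analysed.

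The 6 ATPases form the ring of the 19S cap that unfolds substrates. None was called, and 1 was higher at an unadjusted p under 0.05 in limma. Their levels were the most even of the classes of the 26S particle, from 37.9 to 178 FPKM. Psmc1, the most abundant, had 175 and 176 FPKM in NSN and 171 and 188 FPKM in SN. The groups overlapped, and the log2 fold change of 0.03 turned to -0.12 after median scaling (limma adjusted p = 0.819 as deposited). Psmc3 had the largest difference, with 35.2 and 35.3 FPKM in NSN and 39.6 and 41.6 FPKM in SN. The NSN replicates were nearly equal and both SN libraries were higher (log2 fold change 0.20, limma adjusted p = 0.154). After median scaling the log2 fold change of Psmc3 was 0.05. The ATPases summed to 553 and 586 FPKM in NSN and 575 and 617 FPKM in SN.

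The 11 other subunits of the 19S cap include ubiquitin receptors, scaffold proteins and a deubiquitinase. None was called, while 3 were higher and 2 lower at an unadjusted p under 0.05 in limma, against 23.8% and 7.86% of all genes. Psmd4, a ubiquitin receptor and the most abundant Psm gene, had 529 and 516 FPKM in NSN and 582 and 641 FPKM in SN. The level was higher in each SN library (log2 fold change 0.22, limma adjusted p = 0.106). Psmd13, a scaffold subunit, had the largest difference of the class, with 3.18 and 3.51 FPKM in NSN and 2.30 and 1.48 FPKM in SN. The level was lower in each SN library, on 53 to 125 read pairs, with a log2 fold change of -0.71 that did not pass (limma adjusted p = 0.071). Of its exon bases, 41.15% lie in other annotated genes, 30% in Cox8b, which was not analysed here, and 11.16% in Sirt3. Sirt3 had 1.499 and 0.874 FPKM in NSN and 1.02 and 1.03 FPKM in SN. Psmd14, the deubiquitinase of the cap, was chosen after its values were seen and had 72.4 and 67.5 FPKM in NSN and 82.8 and 91.2 FPKM in SN. It was higher in both SN libraries and did not pass (log2 fold change 0.31, limma adjusted p = 0.073). The class summed to 1103 and 1077 FPKM in NSN and 1130.2 and 1193 FPKM in SN, and the ratio of ATPases to these subunits was 0.501 and 0.544 in NSN and 0.508 and 0.517 in SN.

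The assembly chaperones Psmg1, Psmg3, Psmg4, Psmd5, Psmd9 and Psmd10 help to build the core and the cap and leave the finished particle. None of the 6 was called by limma and none had an unadjusted p under 0.05. Psmg1, the most abundant, had 112 and 104 FPKM in NSN and 92.0 and 109 FPKM in SN. Psmg3, with the largest difference of the class, had 13.3 and 11.2 FPKM in NSN and 8.96 and 12.2 FPKM in SN. In each of these genes SN replicate 2 lay between the NSN replicates while SN replicate 1 was below them. The log2 fold changes were -0.11 for Psmg1 (limma adjusted p = 0.504) and -0.21 for Psmg3 (limma adjusted p = 0.417). Psmg2 was not analysed here.

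For all 4 analysed activators and inhibitors of the core, both SN libraries lay above both NSN libraries on the deposited FPKM, as they did for 44.8% of all genes. Psme4 encodes PA200, a nuclear activator that opens the core without ubiquitin and is known for the degradation of acetylated histones. It had 8.26 FPKM in NSN replicate 1, 10.5 FPKM in NSN replicate 2, 15.2 FPKM in SN replicate 1 and 14.2 FPKM in SN replicate 2. The SN values stood well above the NSN values. Psme4 rose between the group means, 9.37 ± 1.58 FPKM in NSN and 14.7 ± 0.700 FPKM in SN (SD, n = 2). The log2 fold change was 0.63 with a 95% interval from 0.30 to 0.96 (limma adjusted p = 0.046). After median scaling it was 0.48 and the call was lost (limma adjusted p = 0.073, and from 0.0026 to 0.0958 over 10 alternatives). The gene lies on the plus strand of chromosome 11 of GRCm39 from 30721725 to 30830376 (ENSMUSG00000040850.19), and 933 to 1684 read pairs stood behind each value.

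The remaining members of that class were not called. Psme3, a nuclear activator, had 19.4 and 21.1 FPKM in NSN and 26.8 and 23.9 FPKM in SN. Psme2, a part of the interferon-induced activator, had 4.77 and 4.81 FPKM in NSN and 6.84 and 5.92 FPKM in SN. Psmf1, an inhibitor of the core in the test tube, had 84.4 and 73.8 FPKM in NSN and 85.8 and 88.1 FPKM in SN. The SN libraries were above the NSN libraries for each, by the least for Psmf1, whose log2 fold change of 0.14 turned to -0.02 after median scaling. Psme2 and Psme3, chosen after their values were seen, had log2 fold changes of 0.38 and 0.32 (limma adjusted p = 0.105 and 0.096). The median over the 4 genes was 0.35, and 0.20 after median scaling, against 0.14 and 0.005 for all genes. Psme1 was not analysed here. The ratio of Psme4 to Psme3 was 0.425 and 0.498 in NSN and 0.567 and 0.594 in SN.

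Summed over all 44 genes, the Psm genes had 4130.0 and 4139 FPKM in NSN and 4156 and 4535 FPKM in SN. SN replicate 1 was level with the NSN libraries and SN replicate 2 was above them (exact permutation p = 0.33, the smallest that 2 against 2 libraries can give). Of the 42 tested Psm genes, 19 had their highest value in SN replicate 2 and 11 in NSN replicate 1, against 8 in SN replicate 1 and 4 in NSN replicate 2. For all tested genes, 32.1% had their highest value in SN replicate 2, 34.7% in SN replicate 1, 18.5% in NSN replicate 1 and 14.6% in NSN replicate 2. Among the Psm genes the shares were 45.2%, 19.05%, 26.2% and 9.52% in the same order.

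**Figure D2:**
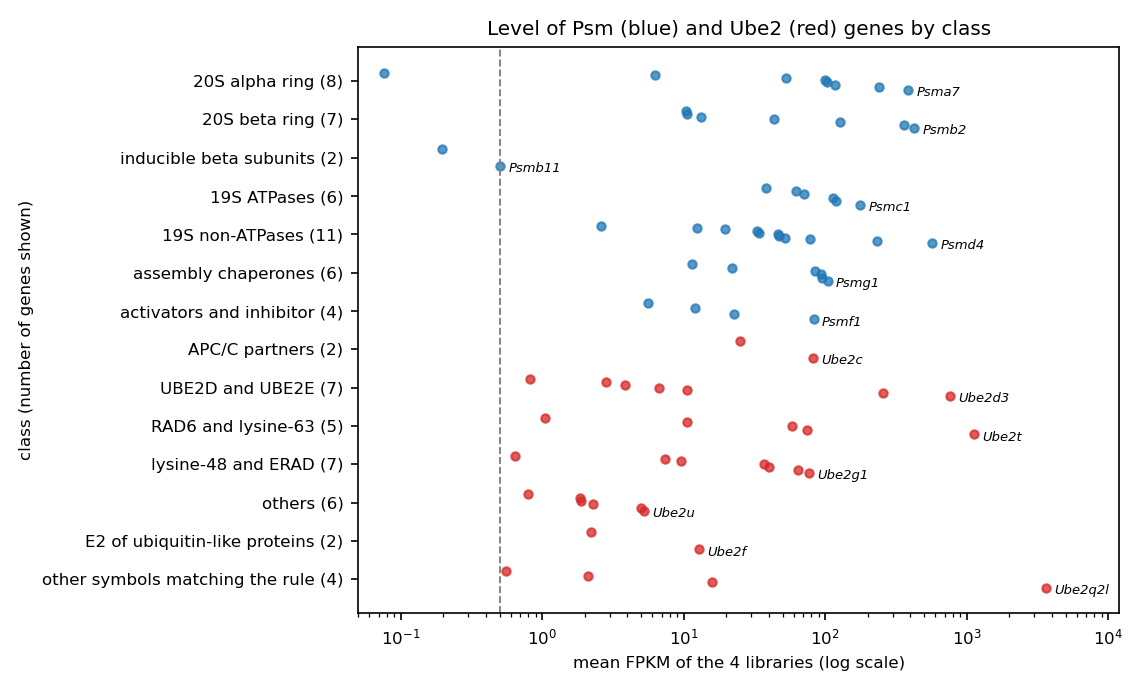
Mean FPKM over the 4 libraries of the Psm genes (blue) and Ube2 genes (red) shown, by class, on a log axis, with the filter of 0.5 FPKM as a dashed line. Psmd4 is the most abundant Psm gene and Ube2q2l the most abundant Ube2 gene, and Psma8 and Psmb10 fall under the filter.

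Among the E2 enzymes, the pair that works with the APC/C held the higher call. Ube2c starts ubiquitin chains on APC/C substrates and Ube2s extends them. Ube2s had 17.3 FPKM in NSN replicate 1, 17.9 FPKM in NSN replicate 2, 31.1 FPKM in SN replicate 1 and 33.3 FPKM in SN replicate 2. The replicates of each group were close, and the SN libraries were far above the NSN libraries. Ube2s rose between the group means, 17.6 ± 0.390 FPKM in NSN and 32.2 ± 1.53 FPKM in SN (SD, n = 2). The fold was 1.81 and the log2 fold change was 0.85 with a 95% interval from 0.64 to 1.07 (limma adjusted p = 0.036, and from 0.000851 to 0.0921 over 10 alternatives). The gene lies on the minus strand of chromosome 7 of GRCm39 from 4795621 to 4815589 (ENSMUSG00000060860.10). Of its exon bases, 25.35% lie in other annotated genes, chiefly Rpl28 on the opposite strand, which had 1.57 and 1.95 FPKM in NSN and 2.34 and 2.26 FPKM in SN. A copy without introns, alike at 99.9% of bases over 80.69% of the transcript, lies on chromosome 9, and the part of reads shared with it was not tested.

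Ube2c had 94.6 and 95.8 FPKM in NSN and 59.9 and 78.8 FPKM in SN. The SN libraries were lower than either NSN library, but they differed from each other more than the NSN replicates did. The log2 fold change of -0.47 did not pass (limma adjusted p = 0.072). The ratio of Ube2s to Ube2c was 0.183 and 0.186 in NSN and 0.520 and 0.423 in SN, so per length the extending enzyme stood closer to the starting enzyme in SN oocytes (exact permutation p = 0.33, the smallest possible).

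The UBE2D enzymes serve a broad range of E3 ligases, and Ube2d3 outweighed its relatives. Ube2d3 had 871 FPKM in NSN replicate 1, 831 FPKM in NSN replicate 2, 679.5 FPKM in SN replicate 1 and 644 FPKM in SN replicate 2. Both SN libraries were below both NSN libraries. Ube2d3 fell between the group means, 851 ± 27.9 FPKM in NSN and 662 ± 25.4 FPKM in SN (SD, n = 2). The log2 fold change was -0.36 with a 95% interval from -0.53 to -0.19 (limma adjusted p = 0.042, and from 0.00251 to 0.118 over 10 alternatives). It was no longer called under quantile normalization, with the replicate block, when no trend of the variance was fitted, or when genes of any level were tested. The gene lies on the plus strand of chromosome 3 of GRCm39 from 135142743 to 135176674 (ENSMUSG00000078578.11). A spliced copy on chromosome X, Gm15361, alike at 96.85% of bases, had 0.906 and 0.629 FPKM in NSN and 0.528 and 0.751 FPKM in SN, far below Ube2d3.

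Its relatives had higher values in SN and did not pass the test. Ube2d2a had 9.68 and 8.89 FPKM in NSN and 11.6 and 11.8 FPKM in SN (log2 fold change 0.32, limma adjusted p = 0.101). Ube2d1 had 3.33 and 3.32 FPKM in NSN and 4.38 and 4.31 FPKM in SN (log2 fold change 0.34, limma adjusted p = 0.124). In both genes the SN libraries were above the NSN libraries and the replicates were close. The ratio of Ube2d3 to Ube2d2a was 89.9 and 93.5 in NSN and 58.6 and 54.4 in SN, and that of Ube2d3 to Ube2d1 was 261 and 251 in NSN and 155 and 149 in SN. Ube2d3 was the dominant UBE2D transcript per length in each library, with a narrower lead in SN. Ube2d2a has a copy without introns on chromosome 3, alike at 99.59% of bases over 70.42% of the transcript. The part of reads shared with that copy was not tested, so the ratio to Ube2d2a is less certain. Ube2w, which places ubiquitin on the N-terminus of substrates, was named after its values were seen and had 233 and 245 FPKM in NSN and 280.0 and 263 FPKM in SN (log2 fold change 0.18, limma adjusted p = 0.152). After median scaling its log2 fold change was 0.03. Of the 7 UBE2D and UBE2E genes with Ube2w, 1 was called lower and none higher, against 1.98% and 5.95% of all genes. At an unadjusted p under 0.05 in limma, 3 were higher and 1 lower, against 23.8% and 7.86%. Ube2d2b was not analysed here.

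The RAD6 homologs Ube2a and Ube2b ubiquitinate histone H2B and work in DNA repair. Ube2a had 83.4 and 76.0 FPKM in NSN and 69.1 and 67.7 FPKM in SN. Ube2b had 50.6 and 51.9 FPKM in NSN and 63.5 and 65.6 FPKM in SN. The groups did not overlap for either gene, Ube2a being lower and Ube2b higher in SN. Neither passed the test, with log2 fold changes of -0.22 for Ube2a (limma adjusted p = 0.135) and 0.33 for Ube2b (limma adjusted p = 0.053). The ratio of Ube2b to Ube2a was 0.606 and 0.683 in NSN and 0.919 and 0.969 in SN, so the levels of the homologs per length were nearly equal in the SN libraries.

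Ube2n builds chains used in signalling and DNA repair together with an inactive partner, Ube2v1 or Ube2v2. Ube2n had 8.48 and 9.38 FPKM in NSN and 12.4 and 11.8 FPKM in SN. Ube2v2 had 0.981 and 1.149 FPKM in NSN and 1.19 and 0.858 FPKM in SN. Ube2n was higher in both SN libraries and did not pass (log2 fold change 0.42, limma adjusted p = 0.063), whereas Ube2v2 overlapped between the groups (log2 fold change -0.04, limma adjusted p = 0.894). Ube2n exceeded Ube2v2 by a ratio of 8.65 and 8.17 in NSN and 10.4 and 13.8 in SN, and Ube2v1 was not analysed here. Ube2t, the E2 of the Fanconi anaemia pathway, was the most abundant of this class, with 1080.4 and 1131 FPKM in NSN and 1056 and 1218 FPKM in SN. The groups overlapped, and the log2 fold change of 0.04 turned to -0.12 after median scaling (limma adjusted p = 0.7999 as deposited). None of the 5 genes of the class was called, with 2 higher and 1 lower at an unadjusted p under 0.05 in limma.

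The E2 enzymes that extend degradative chains or act in degradation from the endoplasmic reticulum held 1 lower call among 7. Over all genes, 1.98% were called lower. Ube2g2, which works with ligases of the endoplasmic reticulum membrane, had 51.4 FPKM in NSN replicate 1, 42.6 FPKM in NSN replicate 2, 31.4 FPKM in SN replicate 1 and 23.4 FPKM in SN replicate 2. Both SN libraries were below both NSN libraries, and the replicates of each group also differed from each other. Ube2g2 fell between the group means, 47.0 ± 6.23 FPKM in NSN and 27.4 ± 5.69 FPKM in SN (SD, n = 2). The log2 fold change was -0.78 with a 95% interval from -1.16 to -0.39 (limma adjusted p = 0.044). After median scaling it was -0.93 and the call was lost (limma adjusted p = 0.054, and from 0.0022 to 0.0967 over 10 alternatives). The gene lies on the plus strand of chromosome 10 of GRCm39 from 77457960 to 77481831 (ENSMUSG00000009293.19).

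Its paralog Ube2g1, which works with cullin-RING ligases, had 66.6 and 74.4 FPKM in NSN and 86.9 and 77.9 FPKM in SN. Both SN libraries were above the NSN libraries, without passing (log2 fold change 0.22, limma adjusted p = 0.169). The ratio of Ube2g1 to Ube2g2 was 1.30 and 1.75 in NSN and 2.77 and 3.34 in SN. Ube2j1 and Ube2j2 are anchored in the endoplasmic reticulum membrane. Ube2j1 had 6.44 and 6.93 FPKM in NSN and 8.17 and 8.09 FPKM in SN (log2 fold change 0.26, limma adjusted p = 0.162). Ube2j2 had 9.85 and 9.37 FPKM in NSN and 8.91 and 10.2 FPKM in SN (log2 fold change -0.01, limma adjusted p = 0.969). Ube2j1 was higher in both SN libraries and Ube2j2 overlapped.

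The remaining ubiquitin E2 genes were at low levels, from 0.793 to 5.23 FPKM, and none of the 6 was called by limma, with 1 higher at an unadjusted p under 0.05. Ube2u was the most abundant of them, with 3.89 and 5.12 FPKM in NSN and 6.56 and 5.35 FPKM in SN (log2 fold change 0.37, limma adjusted p = 0.188). With each library left out in turn, its log2 fold change ran from 0.19 to 0.55. Ube2z, which takes ubiquitin from the E1 enzyme Uba6, had 1.88 and 1.87 FPKM in NSN and 2.39 and 3.09 FPKM in SN (log2 fold change 0.44, limma adjusted p = 0.129). In both genes the SN libraries were above the NSN libraries. Snf8, on the opposite strand, covers 20.68% of the exon bases of Ube2z and was itself called higher in SN (log2 fold change 0.74, limma adjusted p = 0.046). That call was lost after median scaling (log2 fold change 0.61, limma adjusted p = 0.0685). The part of Snf8 in the values of Ube2z was not tested. Ube2l6 and Ube2ql1 were not analysed here.

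The E2 enzymes of ubiquitin-like proteins were not called, and none of the 3 had an unadjusted p under 0.05 in limma. Ube2m, a NEDD8 E2, had 2.06 and 1.89 FPKM in NSN and 2.02 and 2.83 FPKM in SN, with overlap (log2 fold change 0.23, limma adjusted p = 0.419).

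A further 4 symbols matched the rule and fall in no class above. Ube2q2l was the most abundant Ube2 gene and stood at rank 12 of all listed genes, with 3743 and 3667 FPKM in NSN and 3676 and 3499 FPKM in SN. The groups overlapped (log2 fold change -0.05, limma adjusted p = 0.663). Ube2uos is annotated as a lncRNA and had 5 and 2 read pairs in NSN and 5 and 12 in SN. Ube2cbp, which binds E2 enzymes and is no E2 itself, had 13.1 and 15.1 FPKM in NSN and 17.2 and 17.9 FPKM in SN. Ube2dnl1 had 2.01 and 1.73 FPKM in NSN and 2.37 and 2.39 FPKM in SN. So at least Ube2uos and Ube2cbp match the symbols without being conjugating enzymes, and none of the 4 was called by limma (1 had an unadjusted p under 0.05). These genes were named after their values were seen.

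Summed over all 34 genes, the Ube2 genes had 6523 and 6475 FPKM in NSN and 6300.0 and 6241 FPKM in SN. Both SN libraries were slightly below both NSN libraries (exact permutation p = 0.33, the smallest possible), opposite in direction to the median log2 fold change of the family. Ube2q2l, Ube2t and Ube2d3 hold most of the sum. Without Ube2q2l the sums were 2781 and 2808 FPKM in NSN and 2624 and 2742 FPKM in SN, again lower in both SN libraries. The mean of these sums was 2795 FPKM in NSN and 2683 FPKM in SN. Ube2d3 alone fell by more, from a mean of 851 FPKM in NSN to 662 FPKM in SN. The lower sum is thus not a decrease shared by the members.

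**Figure D3:**
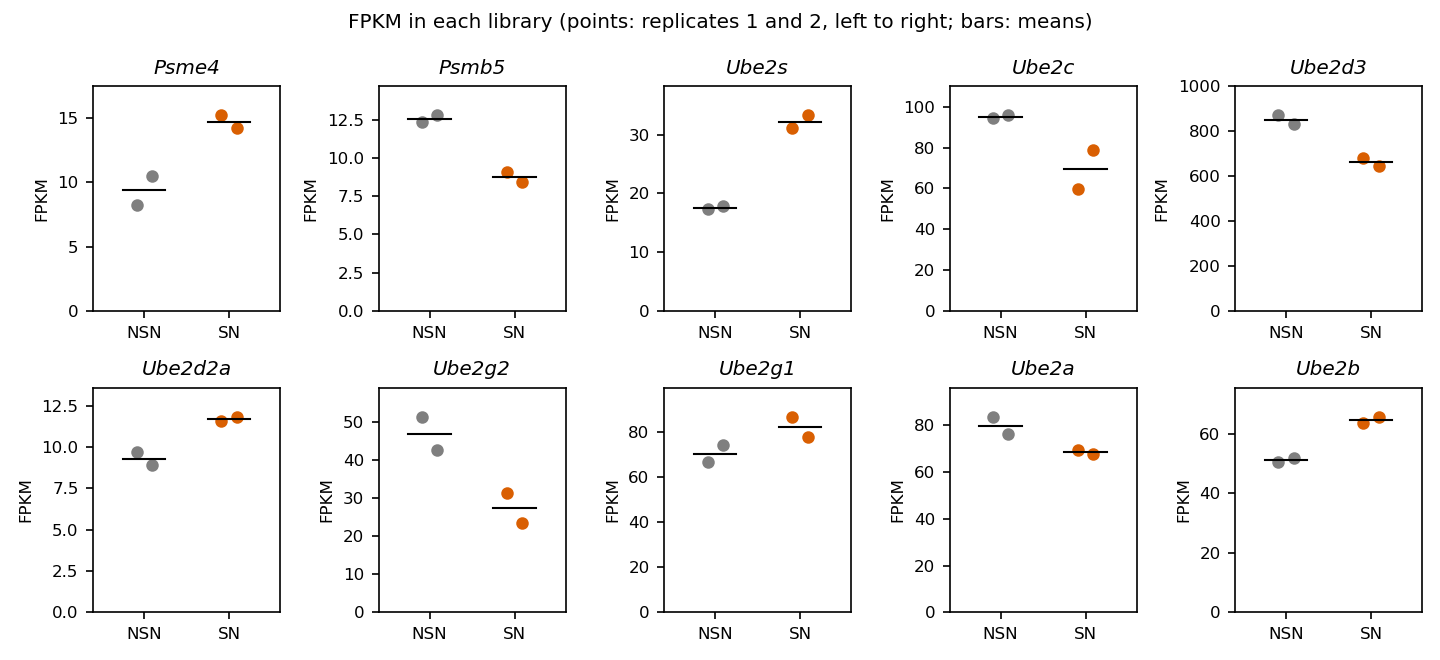
FPKM in each of the 4 libraries for 10 genes: the called genes Psme4, Psmb5, Ube2s, Ube2d3 and Ube2g2 and the relatives Ube2c, Ube2d2a, Ube2g1, Ube2a and Ube2b. The groups overlap for none of these genes.

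The 5 calls depended on single libraries and on the test, as did the number of calls over all genes. With a library left out, a group holds 1 library, which was assumed to vary like the other group. Psme4 was not called without NSN replicate 1, SN replicate 1 or SN replicate 2 (limma adjusted p = 0.127, 0.127 and 0.114). Psmb5 was not called whichever library was left out (limma adjusted p from 0.0568 to 0.151), nor was Ube2d3 (from 0.0589 to 0.184). Ube2s was not called without NSN replicate 1 or SN replicate 2 (limma adjusted p = 0.0676 and 0.0833), and likewise Ube2g2 (limma adjusted p = 0.114 and 0.103). The log2 fold changes stayed on one side of 0, from 0.47 to 0.80 for Psme4, from -0.55 to -0.45 for Psmb5, from 0.81 to 0.90 for Ube2s, from -0.40 to -0.32 for Ube2d3 and from -0.99 to -0.57 for Ube2g2. After median scaling Ube2s, Psmb5 and Ube2d3 were still called, and none of the 5 was if genes of any level were tested or no variance trend was fitted. Over all genes, 0 were called in either of these last settings, so that loss was not particular to the 5. With the filter at a mean of 5 FPKM, Psmb7, Psmd14, Ube2b and Ube2n were also called higher and Ube2c lower. Limma's voom on the library totals called these and also Psmb4 higher and Psmd13 lower, and voom with median scaling called Psma5, Psmd2, Psmd8, Psmd13, Ube2a, Ube2c and Ube2l3 lower, none of which passed among all 11672 genes on the deposited FPKM. Ube2n and Psma6 passed too without NSN replicate 2, where 6 members were called higher.

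Of the other genes of the pathway, 50 of 53 on the lists were listed in the libraries and 47 were tested, with 4 called higher and 2 lower in SN, where 5.95% and 1.98% of all genes were. Uba7, Isg15 and Paaf1 were not analysed here. The genes of these lists that are named here were chosen after their values were seen. The median log2 fold change over the lists was 0.14, and -0.01 after median scaling, close to the values for all genes. Ubb, which encodes ubiquitin, was among the most abundant, with 5314 and 4813 FPKM in NSN and 4503 and 4913 FPKM in SN. Its groups overlapped (log2 fold change -0.10, limma adjusted p = 0.415). The main ubiquitin E1 gene, Uba1, had 5.57 and 7.04 FPKM in NSN and 7.06 and 5.46 FPKM in SN, also with overlap.

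Of 21 tested proteasome partners, 3 were called higher and 1 lower (5.95% and 1.98% of all genes). Sem1, a small subunit of the 19S cap outside the Psm naming, had 20.3 and 19.8 FPKM in NSN and 26.8 and 28.0 FPKM in SN (log2 fold change 0.44, limma adjusted p = 0.044). Rad23b, a shuttle that brings ubiquitinated proteins to the proteasome, had 5.25 and 6.20 FPKM in NSN and 8.81 and 8.71 FPKM in SN (log2 fold change 0.58, limma adjusted p = 0.046). Zfand5, which binds and stimulates the proteasome, had 4.93 and 5.74 FPKM in NSN and 9.35 and 8.21 FPKM in SN (log2 fold change 0.67, limma adjusted p = 0.042). For all 3 the SN libraries stood apart above the NSN libraries, and all 3 calls were lost after median scaling (log2 fold changes 0.29, 0.43 and 0.53, limma adjusted p = 0.108, 0.0766 and 0.0657). Uchl1, a deubiquitinase abundant in oocytes, had 831 and 798 FPKM in NSN and 543 and 620.0 FPKM in SN. It was lower in both SN libraries (log2 fold change -0.49, limma adjusted p = 0.038) and was still called after median scaling (limma adjusted p = 0.0471).

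Of 12 tested genes of the cullin-RING core, 1 was called higher, against 5.95% of all genes. Rbx1, the RING subunit that recruits the E2, had 15.4 and 17.2 FPKM in NSN and 23.2 and 22.5 FPKM in SN (log2 fold change 0.48, limma adjusted p = 0.045), and its call was lost after median scaling (log2 fold change 0.33, limma adjusted p = 0.0829). Skp1, the adapter of F-box proteins, had 4740.4 and 4726 FPKM in NSN and 3982 and 3829 FPKM in SN. Rbx1 was higher and Skp1 lower in both SN libraries, and the log2 fold change of Skp1, -0.28, did not pass (limma adjusted p = 0.053).

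The cell type was checked against marker lists. All 13 oocyte markers were tested, and 10 were called lower in SN and none higher, against 1.98% and 5.95% of all genes. They summed to 27281 and 25612 FPKM in NSN and 18213 and 16875 FPKM in SN, with Zp3 the most abundant. Of 14 granulosa and cumulus markers, 9 were listed and 5 tested, and none was called. They summed to 10.2 and 15.2 FPKM in NSN and 15.3 and 15.3 FPKM in SN, with Cyp19a1 the most abundant, and the defining genes Amh, Foxl2, Fst, Npr2 and Amhr2 were not analysed here. NSN replicate 1 had the least of these markers. Of 8 theca and stroma markers, 4 were listed, with sums of 1.155 and 2.03 FPKM in NSN and 3.04 and 2.58 FPKM in SN, mostly Dcn. Of 7 immune markers, 2 were listed, with sums of 0.665 and 0.702 FPKM in NSN and 0.844 and 1.10 FPKM in SN, mostly Cd68. Of 5 endothelium and blood markers, 2 were listed, with sums of 4.596 and 5.27 FPKM in NSN and 4.85 and 4.70 FPKM in SN, mostly Pecam1. The defining genes Cyp17a1, Col1a1, Col1a2, Lum, Ptprc, Adgre1, Cd52, Lyz2, Cd74, Cdh5, Hba-a1 and Hbb-bs of these lists were not analysed here. The sums for granulosa and cumulus, theca and stroma, and immune cells were thus higher in both SN libraries, by little for granulosa and cumulus against NSN replicate 2, at levels far under those of the oocyte genes, and no marker listed was at 0 in any library. The part of these markers in the results for Psm and Ube2 genes was not tested.

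The members are spread over many chromosomes, though some are neighbours. On chromosome 14, Psmb5 ends at 54855481 and Psmb11 starts at 54858890. On chromosome 4, Ube2uos lies within the span of Ube2u. The Psm genes lie on 16 chromosomes and the Ube2 genes on 15. Near-identical copies elsewhere in the genome (at least 95% of bases alike over at least 50% of the transcript) were found for 8 Psm and 6 Ube2 genes, and more than 20% of the exon bases lie in other genes for 5 Psm and 3 Ube2 genes. Read pairs had been counted without strand, so the values of those genes are less certain.

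Promoter sequences from RefSeq, from 250 bases before to 50 after a gene start, were at hand for 63 members, 37 Psm genes with 40 windows and 26 Ube2 genes with 37 windows. Of 9 motifs searched on both strands, CCGGAAG, the core bound by ETS factors such as GABPA, was found in 37.5% of the Psm windows and 18.9% of the Ube2 windows. It was found in 17.8% of the 10542 windows of tested genes and 8.86% of all 32851 windows. TGACNNNGC, the core of the antioxidant response element known for the induction of proteasome genes by Nfe2l1, was in 15% of the Psm windows and 10.8% of the Ube2 windows, against 14.1% for tested genes and 12.4% for all. GGGCGG, a GC box, was in 55% and 70.3%, against 58.2% and 35.7%, and CCAAT in 32.5% and 21.6%, against 38.95% and 37.4%. The other motifs were TGACTCAGC, which contains a TGACNNNGC match, an E box (CACGTG), the gamma-activated site of interferon signalling, the short motif CGCGAA and the palindrome bound by Kaiso, found in at most 10% of the windows of either family. In percentage points, CCGGAAG was thus the motif in which the Psm windows differed most from those of tested genes, a difference that was not tested. It was present in windows of Psme4 and Ube2d3 and in none of Psmb5 or Ube2s. Ube2g2 had no window. The stretches printed here show it before the start of Psmd4, the most abundant Psm gene, and of Psmg1, the most abundant chaperone gene, both on the minus strand. The RefSeq table is on GRCm38.p6, and the positions were found by exact match to GRCm39: chr3:94950024-94950070 for Psmd4, ending 99 bases before the gene start, and chr16:95792203-95792249 for Psmg1, ending 1 base before it. The capitals mark the motif, and a match describes the letters and is not a sign of binding.
Psmd4: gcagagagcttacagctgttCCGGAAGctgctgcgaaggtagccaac
Psmg1: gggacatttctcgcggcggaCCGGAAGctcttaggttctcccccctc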

How the data were processed

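The deposited FPKM had been made by the authors from reads trimmed with Trim Galore 0.6.10, aligned by HISAT2 to GRCm39 and counted by featureCounts. Whole read pairs were recovered for 99.887% of the genes, to a tolerance of 1e-06. For the comparison of SN with NSN, log2(FPKM + 0.5) of genes averaging 0.5 FPKM or more was fitted by limma 3.58.1 under R 4.3.3 (lmFit, eBayes with a variance trend), with Benjamini-Hochberg adjustment over all genes tested. Tests are two-sided. Gene positions came from a later GENCODE release, in which 97.76% of the symbols occur once, and copies were found with minimap2 2.31. The remaining work used scipy 1.17.1, pandas 2.3.3, numpy 2.4.6 and matplotlib 3.10.9 under Python 3.11.15.

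The members, lists and motifs were chosen with earlier results of these data known. Named members were those called, the most abundant and the most different of each class, and pairs of paralogs, though not all of these are named. The fit was also tested on simulated data. Alternatives were pseudocounts of 0.1 and 1, other filters, no variance trend, quantile normalization, median scaling, the replicate block, voom on the read pairs, and each library left out.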

Additional observations from a re-analysis of the deposited data

How the results depend on the processing

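Most settings moved the counts of calls, and no cause of a move was tested, beyond what a setting does by its construction. Over all genes 926 were called, against 0 with all listed genes (4092 at an unadjusted p under 0.05), 1496 for genes averaging 5 FPKM or more, 257 when scaled by the median, 230 under quantile normalization, 0 without the variance trend (3449 at an unadjusted p under 0.05), 422 with the replicate block, and 2297 and 1707 with limma's voom on library totals and with median scaling. Leaving out each library gave 0 to 1685, with 0 calls and 2278 genes at an unadjusted p under 0.05 without NSN replicate 1.

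For Psm genes the 1 higher call became 0 with all listed genes (11 at an unadjusted p under 0.05), median scaling (1), quantile normalization (4), no variance trend (5) and the replicate block (8). It became 3 for genes averaging 5 FPKM or more and 4 with voom on totals, and lay between 0 and 4 when single libraries were left out. The 1 lower Psm call became 0 with all listed genes (4), no variance trend (2) and the replicate block (2), 2 with voom on totals and 5 with voom and median scaling, and was 0 with any library left out (2 to 4). The 1 higher Ube2 call became 0 with all listed genes (6) and no variance trend (8), and 3 for genes averaging 5 FPKM or more and with voom on totals, and lay between 0 and 2 when single libraries were left out. The 2 lower Ube2 calls became 0 with all listed genes (4), quantile normalization (6) and no variance trend (4), 1 with median scaling and the replicate block, and 5 with voom and median scaling, and lay between 0 and 1 when single libraries were left out.

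The median log2 fold change of the Psm genes, 0.07, moved to -0.0796 with median scaling, 0.00202 with quantile normalization and -0.0795 with voom and median scaling. That of the Ube2 genes, 0.19, moved to 0.0491, 0.0935 and 0.0491.

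Of 33 tested genes named by the fixed choice, 23 kept one sign in every setting that tested them, which were 14, or fewer for genes averaging under 5 FPKM, and the signs of members named after their values were seen are not given here. Signs turned with median scaling, quantile normalization and voom with median scaling for Psmc1 (-0.12, -0.0477 and -0.12), with median scaling and voom with median scaling for Psmf1 (-0.0159 and -0.0153) and Ube2t (-0.12 and -0.12), and with quantile normalization for Psma7 (0.00023). With each library left out, signs turned within -0.16 to 0.13 for Psma7, -0.0349 to 0.0945 for Psmc1, -0.0657 to 0.14 for Ube2t, -0.22 to 0.12 for Psmb11, -0.26 to 0.0258 for Psmb2, -0.22 to 0.0119 for Psmg1, -0.42 to 0.0021 for Psmg3, -0.10 to 0.087 for Ube2j2 and -0.20 to 0.11 for Ube2v2. None of these genes was called.

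With the replicate block, Ube2s and Ube2g2 were the members called. Across genes, the difference between NSN replicates and that between SN replicates had a correlation of -0.07. The labels do not say whether libraries of the same number share more than that number.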

Other observations

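Pseudogenes were named after their values were seen. Ube2n-ps1 had 2.25 and 6.45 FPKM in NSN and 16.2 and 6.78 FPKM in SN, on 18 to 127 read pairs, and was not called (log2 fold change 1.33, limma adjusted p = 0.131). SN replicate 1 stood above the rest. Ube2d-ps had 1.38 and 1.30 FPKM in NSN and 1.31 and 1.38 FPKM in SN, with overlap. Ecpas, a large proteasome adapter outside the Psm naming, had 12.2 and 14.6 FPKM in NSN and 19.3 and 18.7 FPKM in SN, higher in both SN libraries without passing (log2 fold change 0.49, limma adjusted p = 0.052).

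Several limits hold for all values. There were 2 libraries a group, and FPKM carry no amount of RNA per oocyte. Replicates differed by more than counting error, with a chi-square per degree of freedom of 6.52 in NSN and 7.22 in SN. The gene annotation used for positions and overlaps is later than the one used by the authors. Classes of genes with shared exons or near-identical copies carry uncertain read pairs. RNA levels say nothing of the amount or activity of the proteasome, and protein was not analysed here.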
